A study of Mus musculus with 3 samples.

Results

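The Speer window of chromosome 5 was examined in the peak lists of 2 testis-specific histone variants, TH2B and TH2A, from mature caudal sperm of BALB/c-129-E mice aged 8 to 12 weeks. Each variant was immunoprecipitated without crosslinking from MNase-digested chromatin, and mononucleosomal DNA was sequenced in 1 library for TH2B, 1 for TH2A and 1 for Input, against which the peaks were called. TH2B was pulled down with a commercial rabbit antibody and TH2A with a rabbit antibody from another laboratory, and 2 ChIP reactions were pooled per variant before sequencing, so no replicate spread exists and no difference between the variants could be tested. The window ran from 14.5 to 16.5 Mb of chromosome 5 in mm10, and was chosen with its peaks known. It held 14 of the 1389 peaks in both lists. They were 8 of 1179 TH2B peaks (0.679%, 95% Wilson interval 0.344 to 1.33%) and 6 of 210 TH2A peaks (2.86%, 1.32 to 6.09%). Its peaks were described against 9 protein-coding members, which are Speer4c, Speer4d, Speer4e, Gm21083, Gm21190, Gm10354, Gm17019, Gm9758 and 4930572O03Rik.

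Speer genes encode spermatogenesis-associated glutamate (E)-rich proteins, which are expressed in the testis and resemble the N-terminal part of Dlg5, a scaffold protein of cell junctions. The family is specific to rodents and lies in clusters of near-identical copies. TH2A and TH2B are the H2A and H2B variants made in male germ cells from a shared bidirectional promoter. Most histones leave the chromatin for protamines as spermatids elongate, and the nucleosomes that remain in sperm are what a sperm ChIP can sample.

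The members' label was examined by alignment, since only 3 of the 9 carry a Speer symbol. With Gm21149, a protein-coding gene of the window that is no member but aligned with them, they made 10 family genes of 4049 to 5209 bp, each with 5 exons in its annotated transcript with the most exons. Over the 45 pairs the genes were 97.4 to 99.0% identical (median 98.3%), with 4930572O03Rik and Speer4c closest and Gm17019 and Gm21190 farthest. Gaps and unaligned ends were left out of this identity. Of the 10 genes, 8 lay on the minus strand, and Gm21083 and Speer4d on the plus strand. Neighbouring start sites were 23530 to 443525 bp apart (median 48111 bp), and the widest distance spans 395000 bp of unsequenced bases from 15062667 to 15457666. In 7 of the 14 peaks, some or all 150-bp stretches occurred base for base elsewhere, and a read from such a stretch can be placed at any of its copies. How the authors treated reads with several positions is not given in the sources used here, so the copy of origin of these 7 peaks is uncertain. The other peaks also have near-identical copies, and their placement rests on bases of the reference. Whether the mice carry the same bases was not tested.

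The sequences under the peaks on which the results turn are given first, 5′ to 3′ in the sense of the nearest family gene, from the mm10 reference. Capitals mark the bases that differ in at least 1 other copy in the window, so the lower-case runs are what all copies share. The first is the TH2B peak at the last exon of Gm21149, whose last 139 of 209 bases are in exon 5, the second the TH2A peak in intron 2 of Speer4c, and next come a TH2A and a TH2B peak that overlap at one end when their copies are aligned, upstream of Gm9758 and Gm21149. The last pair are TH2B peaks at homologous positions upstream of Speer4e and Gm21190.
TH2B, Gm21149 intron 4 and exon 5, chr5:15472092-15472300, minus strand: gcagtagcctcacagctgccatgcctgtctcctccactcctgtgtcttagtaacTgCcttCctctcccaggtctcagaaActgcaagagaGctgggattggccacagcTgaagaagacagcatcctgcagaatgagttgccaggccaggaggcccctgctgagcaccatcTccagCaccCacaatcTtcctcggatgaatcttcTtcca
TH2A, Speer4c intron 2, chr5:15711727-15712007, minus strand: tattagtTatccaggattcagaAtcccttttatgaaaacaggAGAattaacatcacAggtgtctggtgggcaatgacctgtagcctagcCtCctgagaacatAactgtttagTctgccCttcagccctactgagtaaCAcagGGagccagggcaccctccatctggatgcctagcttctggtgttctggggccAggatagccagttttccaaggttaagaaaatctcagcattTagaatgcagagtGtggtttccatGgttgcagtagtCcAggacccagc
TH2A, upstream of Gm9758, chr5:14921645-14921847, minus strand: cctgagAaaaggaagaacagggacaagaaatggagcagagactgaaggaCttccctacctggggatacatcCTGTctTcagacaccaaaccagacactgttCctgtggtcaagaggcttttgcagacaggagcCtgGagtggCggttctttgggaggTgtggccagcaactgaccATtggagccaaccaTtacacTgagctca
TH2B, upstream of Gm21149, chr5:15483437-15483636, minus strand: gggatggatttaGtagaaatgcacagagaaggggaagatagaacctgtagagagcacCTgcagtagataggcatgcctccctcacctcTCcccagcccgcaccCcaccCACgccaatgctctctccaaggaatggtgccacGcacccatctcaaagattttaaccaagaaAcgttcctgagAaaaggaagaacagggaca
TH2B, upstream of Speer4e, chr5:14947923-14948122, minus strand: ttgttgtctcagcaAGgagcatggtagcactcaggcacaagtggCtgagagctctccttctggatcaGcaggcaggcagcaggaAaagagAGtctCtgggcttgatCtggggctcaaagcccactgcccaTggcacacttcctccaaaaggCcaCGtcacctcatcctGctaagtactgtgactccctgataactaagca
TH2B, upstream of Gm21190, chr5:15550098-15550312, minus strand: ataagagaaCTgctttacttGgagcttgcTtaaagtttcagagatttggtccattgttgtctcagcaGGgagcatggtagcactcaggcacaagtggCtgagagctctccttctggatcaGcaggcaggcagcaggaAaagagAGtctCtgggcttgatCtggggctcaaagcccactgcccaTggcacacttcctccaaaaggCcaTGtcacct

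At the start of Gm21190 a TH2B and a TH2A peak overlapped, and the 152 bp under both are given with the start codon in capitals. The RefSeq promoter of the gene (GRCm38.p6, 250 bases before the start to 50 after it) follows, with each match to TGACNTCA on either strand in capitals.
Both lists, Gm21190 start, chr5:15529096-15529247, minus strand: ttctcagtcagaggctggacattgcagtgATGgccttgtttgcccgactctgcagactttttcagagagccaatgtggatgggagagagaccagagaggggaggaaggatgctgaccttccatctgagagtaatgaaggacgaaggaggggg
Gm21190 promoter, chr5:15529173-15529472, minus strand: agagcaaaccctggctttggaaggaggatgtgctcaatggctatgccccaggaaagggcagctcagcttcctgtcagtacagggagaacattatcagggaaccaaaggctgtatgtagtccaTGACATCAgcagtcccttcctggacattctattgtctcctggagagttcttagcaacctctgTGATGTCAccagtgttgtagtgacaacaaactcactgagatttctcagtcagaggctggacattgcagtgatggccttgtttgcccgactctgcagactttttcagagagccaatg

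The peaks of both lists were denser in the window than along the rest of chromosome 5. Per sequenced Mb there were 4.98 TH2B peaks in the window against 0.458 on the rest of the chromosome and 0.428 on all nuclear chromosomes outside the window. For TH2A the density was 3.74 per Mb against 0.0137 and 0.0669. Chromosome 5 carried 75 TH2B and 8 TH2A peaks in all, so 6 of its 8 TH2A peaks lay here. These densities chose the window and are a description. Of 1354 bins of 2 Mb over the nuclear chromosomes, 14 had at least 8 TH2B peaks and 7 had at least 6 TH2A peaks, with maxima of 61 and 57.

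Within the window the 14 peaks were confined to 790363 bp, from 14921645 to 15712007. Of the family genes, Gm9758 lies just before this stretch and Speer4c runs past its end. Pclo, a presynaptic scaffold gene, and Cacna2d1, a calcium channel subunit gene, are the other 2 protein-coding genes of the window, and neither had a peak. The outermost peaks of the window were the TH2A peaks at 14921645-14921847 and 15711727-15712007. The next peaks on the chromosome lay far from the limits, with a TH2B peak at 7179305-7179545 on one side, and on the other a TH2B peak at 17468661-17468865 with a TH2A peak at 17468664-17468891. Peaks were short, at 200 to 247 bp for TH2B (median 205.5 bp) and 201 to 315 bp for TH2A (median 210 bp). Outside the window the medians were 236 and 253 bp.

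**Figure D1:**
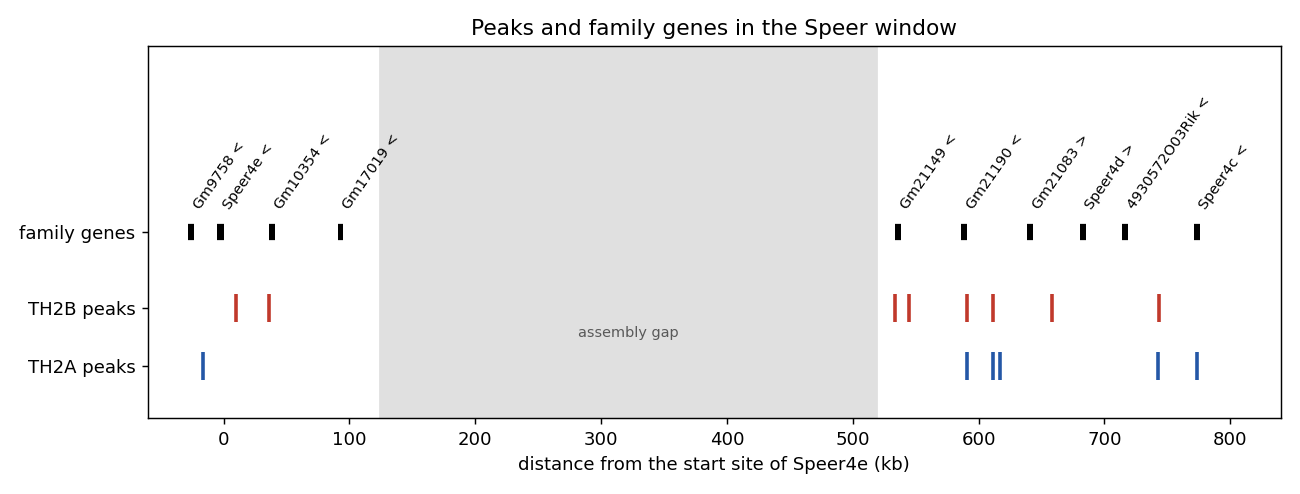
Positions of the 10 family genes (black blocks, with > or < for the strand) and of the centres of the 8 TH2B and 6 TH2A peaks, along the x axis as distance in kb from the start site of Speer4e. All 14 peaks lie among the family genes, on both sides of the assembly gap shaded grey.

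Peaks fell into few of the genes. A TH2B peak overlapped 2 of the 9 members, Gm10354 and Gm21190, where 1.53% of all annotated genes and 2.89% of protein-coding genes had one. A TH2A peak overlapped 2 of the 9, Gm21190 and Speer4c, where 0.106% of all genes and 0.119% of protein-coding genes had one. In all, 3 of 9 members had a peak of either list, for which no share over all genes was computed. Since the members were chosen from these peaks, their counts are a description. With 5 kb on each side of the gene the counts stayed at 2 for TH2B, against 2.58% of all and 4.21% of protein-coding genes, and at 2 for TH2A, against 0.22% and 0.15%. Of the 14 peaks, 5 lay in a family gene and 11 in a gene of any kind. The window, chosen with its peaks known, has 35 genes, 8 of which had a peak of either list. Besides the family genes these were Speer4cos, Gm21847, Gm30613 and Gm43391, which are annotated as antisense transcripts and overlap the family or the spaces between its genes.

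Gm21190 was the member with peaks of both lists at its start, and 1 of 2 places in the window where the lists met. Its TH2B peak at 15529048-15529247 was centred 74.5 bp downstream of the start site and covered 143 bp of exon 1, of which 139 bp were coding. Its TH2A peak at 15529096-15529410 was centred at -31 bp (negative values are upstream) and covered 127 bp of exon 1, of which 123 bp were coding. The peaks shared 152 bp, which was 48.3% of the TH2A and 76.0% of the TH2B peak, with the centres 105.5 bp apart. An exon of the antisense transcript Gm21847 covers both peaks whole.

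The TH2B peaks in Gm10354 and Gm21149 lay at the same position of the gene, across the start of exon 5, the last. The peak in Gm10354 at 14974466-14974712 was centred at 4346 bp from the start site and covered 141 bp of coding sequence and 34 bp of UTR. The peak in Gm21149 at 15472092-15472300 was centred at 4327 bp and covered 139 bp of coding sequence. It also lay in intron 1 of the antisense Gm43391, which begins at 15464171 on the plus strand. The nearest start site was that of another transcript of Gm43391, inside that gene, with the peak at -829 bp. The 209 bp of the Gm21149 peak had no substitution against Gm10354, whereas the other 8 copies differed from it by 1 to 3 substitutions.

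Speer4c carried the remaining peak inside a member. This TH2A peak at 15711727-15712007 lay in intron 2, at 2404 bp from the 5′ end of the gene and 2369 bp from its nearest annotated start site, and also in intron 4 of the antisense Speer4cos. Speer4cos had a further TH2A peak at 15680681-15680884, centred 72.5 bp downstream of its own start site with 129 bp in exon 1. A TH2B peak at 15681752-15681953 followed in its intron 1 at 1142.5 bp. These last peaks of TH2A and TH2B did not overlap, and 867 bp separated them.

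The other 6 members had no peak within 5 kb, and their nearest peaks were all beyond their ends. Upstream of Gm9758 the TH2A peak at 14921645-14921847 was centred at -6847 bp. The nearest peak to Speer4e was TH2B at 14947923-14948122, centred at -9593.5 bp. For Gm21083 the nearest was TH2B at 15596490-15596723, centred 19273.5 bp downstream of its start site, and this peak is the nearest to Speer4d too, at -22457.5 bp. The nearest TH2A peak to Gm21083, at 15555315-15555530, was centred at -21910.5 bp. Nearness alone assigned it to this plus-strand gene. Its copies upstream of the minus-strand genes Gm10354, Gm17019, Gm21149 and 4930572O03Rik ran in the same direction as the peak.

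For 4930572O03Rik the nearest peak was the TH2A peak at the start of Speer4cos, at -23723.5 bp, and the nearest TH2B peak lay at -24793.5 bp. Gm17019 stood farthest from any peak, with the nearest, TH2B in Gm10354, centred 58409 bp from its start site on the downstream side. It is the last family gene before the assembly gap. Gm21149 had a second TH2B peak at 15483437-15483636, centred at -7013.5 bp. The second place where the lists met lay at -20983 bp (TH2B, 15550098-15550312) and -20990 bp (TH2A, 15550112-15550312) from Gm21190, in introns of Gm21847 and Gm30613. There the TH2A peak lay wholly within the TH2B peak, sharing 201 bp, which was 93.5% of the latter, with centres 7 bp apart.

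Peaks lay 31 to 21910.5 bp from the nearest start site. Of the 8 TH2B peaks, 2 were centred within 1 kb (25.0%, Wilson 7.15 to 59.1%) and 4 within 5 kb of the nearest annotated start site of any transcript, with a median distance of 5679.75 bp. Of the 1132 TH2B peaks on nuclear chromosomes outside the window, 51.4% were within 1 kb and 68.8% within 5 kb, with a median of 879.75 bp. Of the 6 TH2A peaks, 2 were within 1 kb and 3 within 5 kb (median 4608 bp), where 23.2% and 53.7% of the 177 outside were (median 4097.5 bp). With so few peaks the intervals take in the shares outside the window. Counting family genes alone, 1 TH2B and 1 TH2A peak were within 1 kb of a start site, both at Gm21190.

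**Figure D2:**
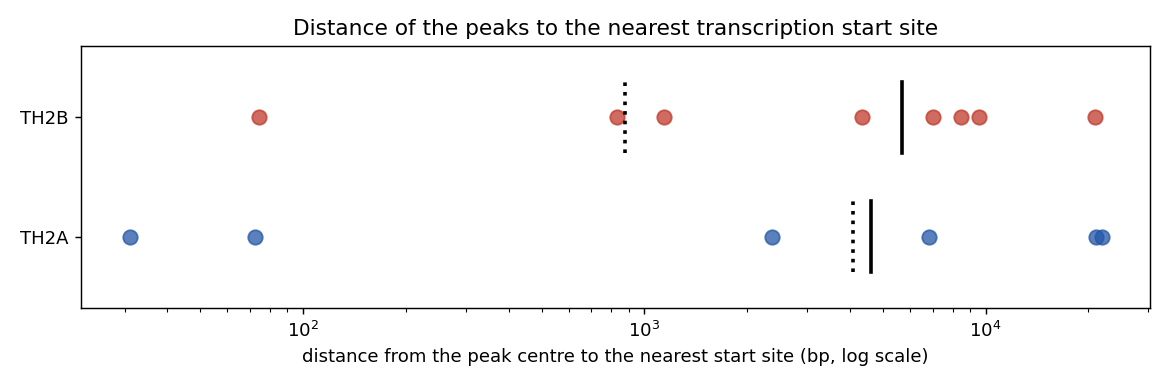
Distance in bp, on a log scale, from each peak centre of the window to the nearest transcription start site, with 1 point per peak. Solid bars are the medians of the window (5679.75 bp for TH2B and 4608 bp for TH2A), and dotted bars those of the nuclear chromosomes outside it (879.75 and 4097.5 bp).

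Overlap between the lists was thus limited to the start of Gm21190 and the place upstream of it. It amounted to 2 of 6 TH2A peaks (33.3%, Wilson 9.68 to 70.0%) and 2 of 8 TH2B peaks (25.0%, 7.15 to 59.1%). Over the nuclear chromosomes 33.9% of TH2A peaks overlapped a TH2B peak and 5.35% of TH2B peaks overlapped a TH2A peak. Neighbouring TH2B peaks were 11340.5 to 497607 bp apart (median 45611 bp over 7 distances), and neighbouring TH2A peaks 5210.5 to 607507 bp (median 31084.5 bp over 5).

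Every peak of the window had a near-identical copy elsewhere, taken as a match of 95% identity or more that spanned 80% or more of its length. This held for 8 of 8 TH2B peaks (Wilson 67.6 to 100%) and 6 of 6 TH2A peaks (61.0 to 100%). Outside the window it held for 24.1% of 1132 TH2B peaks and 61.6% of 177 TH2A peaks, so the TH2A interval takes in the share outside. The best other copy was 97.8 to 100% identical. Grouping peaks that lay on copies of the same sequence reduced the 14 peaks to 10 sites. The 10 sites had 71 places in the window. A peak covered at least 50% of 12 of these places, and at 59 no peak reached that share. Counting peaks of the window only, both lists had a peak at 2 of the sites, TH2B alone at 4 and TH2A alone at 4. At the TH2A site upstream of Gm9758, both lists also had a peak at a copy outside the window.

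**Figure D3:**
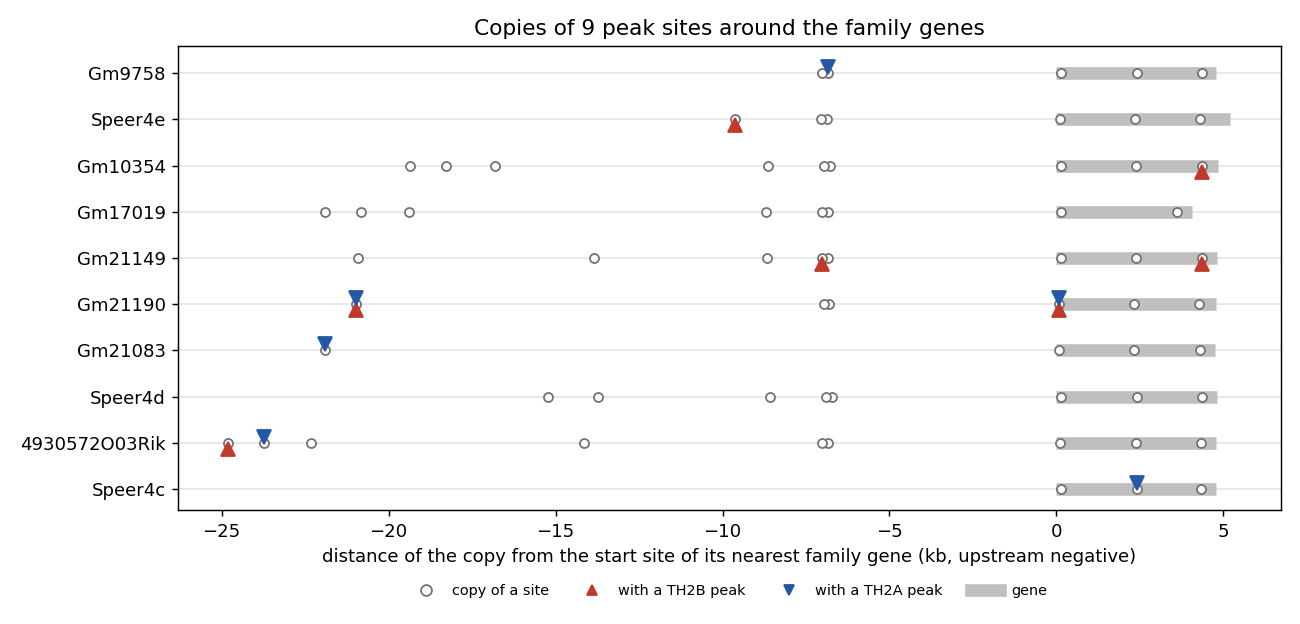
Places of 9 of the 10 sites (open circles) around each family gene, by distance in kb from the start site of the nearest family gene. Triangles mark places with a TH2B (red, pointing up) or TH2A (blue, pointing down) peak and grey bars the genes. The sites inside the genes recur in nearly every row, and most of their circles carry no triangle. The site not drawn is a dispersed repeat.

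Sites inside the genes were present in nearly every family gene. The last-exon site had 10 places, and TH2B peaks were called at the 2 in Gm10354 and Gm21149. The intron 2 site had 9 places, with a TH2A peak in Speer4c alone, although the copy in Gm9758 differed from it by 1 substitution over 280 bp. The start site had 10 places in the window and a further 14 on the rest of chromosome 5. Among family genes and protein-coding Speer genes, the nearest was Speer4a for 13 of these and Speer4b for 1. The place at 26039313-26039512 lay 145.5 bp downstream of the Speer4a start site. The rest of the 13 lay 16737.5 bp or more from it, on either side, and other genes near them were not considered. Both lists had their peak at Gm21190 and at none of the other places. The copy of the TH2A start peak at Gm21083 differed from it by 1 substitution over 313 bp, and the copy of the TH2B peak at Gm10354 by 1 over 200 bp.

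Sites between the genes had 3 to 8 places in the window. The TH2A peak upstream of Gm9758 and the TH2B peak upstream of Gm21149 belong to neighbouring sites with 8 places each in the window, at -6871.5 to -6735 bp and -7046.5 to -6911.5 bp. When the TH2A sequence was placed at its copy upstream of Gm21149, it shared 25 bp with the TH2B peak, and together they spanned 378 bp. The first of these sites had 1 more place, outside the window, upstream of Speer4f1 (17468648-17468850). Its 203 bp were identical to the Gm9758 copy, and it carried the next TH2B and TH2A peaks past the window, which shared 202 bp and were centred at -7335 and -7320.5 bp from the start of Speer4f1.

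The site of the second meeting place had 7 places. TH2B was called upstream of both Speer4e and Gm21190, and TH2A upstream of Gm21190 alone. Over the 200 bp of the Speer4e peak, the Gm21190 copy had 2 substitutions. At 4 of the other copies this site lay at -8695 to -8574 bp from the start site, against -20983 bp at Gm21190. The TH2A peak upstream of Gm21083 had 6 places in the window and each of the Speer4cos peaks 5 and 3, with a peak at 1 of them in each case. The TH2B peak at 15596490-15596723 was soft-masked over 100% of its length as repeat sequence, and had 5 places in the window, 1 on chromosome 1 and 128 copies of at least 90% identity.

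How far a read could tell the copies apart was measured with all 150-bp windows of each peak, the length of a sequenced read. In the 8 TH2B peaks 175 of 515 such windows (34.0%) occurred base for base elsewhere in the genome, and in the 6 TH2A peaks 375 of 526 (71.3%). Outside the window the shares were 12.6% and 37.3%. No window was unique in 4 peaks, which were TH2B in Gm10354 and Gm21149 and TH2A at Gm21190 and upstream of Gm9758. The TH2A peak in Speer4c had 6 unique windows of 132. At the other extreme, 7 peaks had windows that were unique in the reference throughout, among them both peaks upstream of Gm21190. At the Gm21190 start, 34 of the 51 windows of the TH2B peak were unique. The reads came in pairs, and the second read of a pair was not considered. The paper cut out mononucleosomal DNA of about 150 bp, so both reads of a pair would cover much the same bases.

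**Figure D4:**
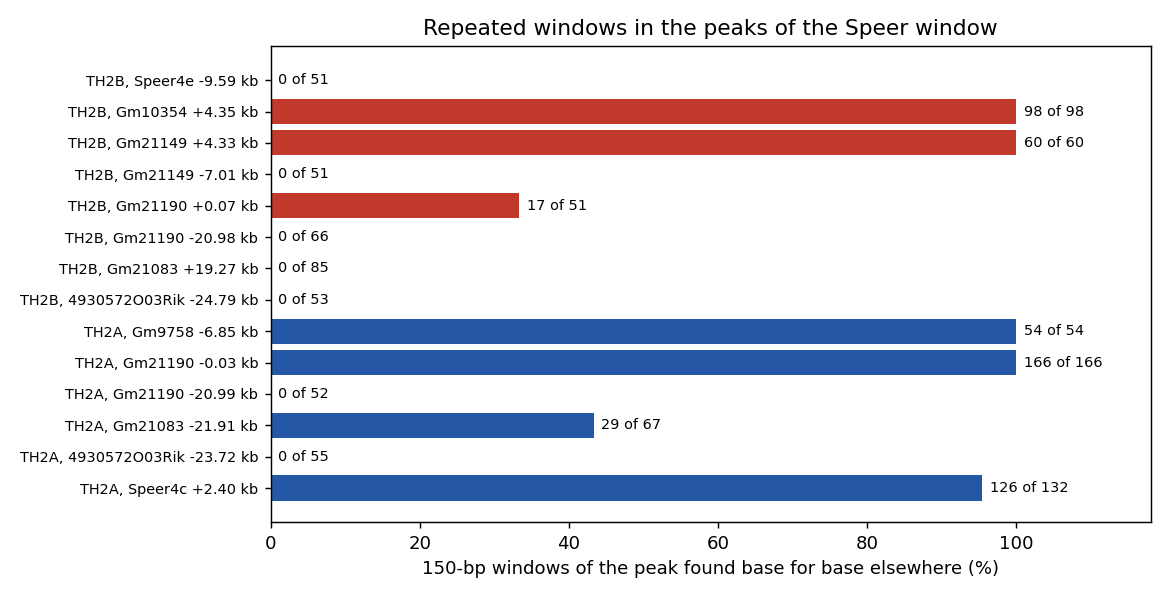
Share of the 150-bp windows of each peak that occur base for base elsewhere in the genome, in percent, for the 8 TH2B (red) and 6 TH2A (blue) peaks, named by the nearest family gene and the distance from its start site. The numbers give repeated windows of all windows. The values are 100% in 4 peaks and 0% in 7.

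The composition of the window's peaks is given by list, beside that of the peaks outside, and was not tested. The TH2B peaks had a median GC content of 52.3% (51.5 to 57.3%), against 59.8% outside the window, and a median of 0.489 CpG per 100 bp against 4.28. Their median soft-masked share was 37.3% against 4.29%. The TH2A peaks had 48.8% GC (42.6 to 52.2%) against 48.5%, 0.246 CpG per 100 bp against 0.789, and a masked share of 31.1% against 24.8%. The highest CpG density was 3.47 per 100 bp, in the TH2B peak of Speer4cos.

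Promoters from RefSeq matched 9 of the 10 family genes. Those of the other 8 aligned with that of Gm21190 over 231 to 280 of its 300 bases, and were 98.1 to 99.1% identical over the aligned part. Only that of Gm21190 lay under a peak. The motif TGACNTCA leaves open 1 base of the cAMP response element, so a match need not be that element. It was found on either strand in 9 of 9, and in 8.83% of 32851 mouse promoters of the same length. CCAAT was found in 9 of 9 against 37.4%, and TATAAA in 0 of 9 against 13.6%. The TGACNTCA matches of Gm21190 read TGACATCA and TGATGTCA, the same word on opposite strands. They have A at the open base and are not the element itself. The open base in the other 8 promoters is not reported. The 9 promoters are near-identical copies and not independent, so these counts are a description. Matches of different motifs can share at most 1 base. A match describes the letters and not binding by a factor.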

How the data were processed

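Mononucleosomal DNA of a TH2B ChIP, a TH2A ChIP and Input from mouse caudal sperm was sequenced as 150-bp read pairs. The paper gives about 34000000 unique paired-end reads for the TH2A library and 30000000 for the others. What unique means there is not explained. The authors trimmed the reads, aligned them to mm10 with BWA, removed unaligned reads with SAMtools, and called peaks with MACS2 2.1.3 against Input. They filtered the peaks by a p-value cutoff. The deposited lists give the chromosome, start, end and width of each peak in bp, with no measure of strength, so the depth behind a peak is unknown. Treatment of duplicates and of reads with several positions is not given in the sources used here.

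Peaks were placed on GENCODE M21 and GRCm38.p6 with Python 3.11, and aligned to the nuclear chromosomes with BLAST 2.17.0 (word size 16 in the window, 28 for all peaks). A copy needed 95% identity over 80% of the peak. Sharing needed 1 bp. Wilson intervals (95%) cover counting error only. The functions were tested on simulated data. With 1 library per variant no test was made.

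The members, lists and window were chosen with earlier results of these data known. The rule for named genes took the members, Speer genes with a peak within 5 kb and window genes with a peak. Other genes, among them Pclo, Cacna2d1, Dlg5, Speer4a, Speer4b and Speer4f1, are named for position or background.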

Additional observations from a re-analysis of the deposited data

How the results depend on the processing

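Of 40 alternative values, 32 stayed within 1.5 times the reported one and 8 did not. Keeping peaks of at least 250 bp left 0 TH2B and 2 TH2A peaks in the window. Asking for the peak centre in the gene, or for overlap with an exon, left 1 member with a TH2A peak in each case, and assigning peaks to the nearest start site gave 4. Measured to start sites of protein-coding genes, the median TH2A distance became 13918.5 bp. Asking for 50% of both peaks left 1 shared TH2A peak, since 48.3% of the TH2A peak was covered at Gm21190. Pooling both lists brought the median spacing from the TH2B value to 26276.5 bp. Wider or narrower windows and merged peaks changed no count of peaks. Raising the identity to 98% left 7 TH2B and 6 TH2A peaks with a copy. A stricter peak threshold was not run, as the lists hold no score. No paired analysis was possible because each variant has 1 library and no result comes from a test.

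Depth per peak, the fate of reads with several positions, and differences between BALB/c-129-E mice and the reference in the number and sequence of the copies were not tested. The assembly gap of 395000 bp was not analysed.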

Other observations

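Of 14 genes in GENCODE whose symbol starts with Speer, members included, a TH2B peak overlapped 1 (Speer4cos), where 1.53% of all genes had one, and a TH2A peak 2 (Speer4c and Speer4cos), where 0.106% had one. Both lie in the window. The 6 on chromosome 5 outside the window had none within 5 kb. Of the 4 on other chromosomes, Speer5-ps1, a pseudogene on chromosome 10, had a TH2B peak at 44169540-44169810, centred at -236 bp from its start site. Dlg5 had no TH2B peak nearer than 4941761.5 bp and no TH2A peak on its chromosome.

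The annotation decides which gene a peak belongs to. RefSeq lists a transcribed pseudogene, Speer8-ps1, at 14945294-14978541, which takes in the TH2B peaks upstream of Speer4e and in Gm10354. The RefSeq gene Speer5-ps1 begins at 44170447, against 44169911 in GENCODE.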
